A study of Arabidopsis thaliana with 8 samples.

Results

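The transcripts described here gave a higher signal on every yabby mutant array than on every wild-type array of shoot apices of Arabidopsis thaliana. They were chosen by their values in that comparison. A probe set, the group of short probes that reads 1 transcript, entered when its lowest signal on the 4 mutant arrays exceeded its highest signal on the 4 wild-type arrays. Its mean over the mutant arrays had to lie at least 1 log2 unit, a factor of 2, above its mean over the wild-type arrays, and at least 1 wild-type array had to read above a log2 signal of 4. Of 22746 probe sets, 271 met these thresholds. Probe sets of 7 genes (WES1, GH3.17, GID1B, GH9B13, APS4, GTR2 and AT1G33790) were then left out. GID1A, an eighth gene to be left out, did not meet the thresholds. This left 264 members. Of these, 124 name a single gene each, 5 name several genes and 135 are unnamed here. The named members are 124 different genes, of which 21 have a gene symbol and 103 only a locus name. Apart from a pseudogene and a member with an older symbol, no function is given here for those with only a locus name.

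YABBY genes encode transcription factors, proteins that bind DNA and set the transcription of other genes. FILAMENTOUS FLOWER (FIL), YABBY3 (YAB3) and YABBY5 (YAB5) are active on the lower, abaxial side of young leaves, where they are known for promoting growth of the leaf blade and abaxial identity and for limiting meristem genes in the leaf. YABBY proteins are known to act with corepressors, and loss of several of them gives narrow leaves. The members can be called transcripts that stayed low in apices with working FIL and YAB3. The arrays compare signal between genotypes, and whether either protein represses any member was not measured.

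All plants were of the Landsberg erecta (Ler) strain, which carries the erecta mutation in every group. Shoot apices were taken 14 days after sowing from plants grown in short days, and total RNA was labelled with biotin and hybridised to 1-colour Affymetrix arrays. The 3 groups were wild type (4 arrays), the double mutant fil-8 yab3-2 (2 arrays) and the triple mutant fil-8 yab3-2 yab5-1 (2 arrays). The mutations are present in the whole plant, and an apex holds meristem, leaf primordia and young leaves together. For a higher mutant signal, more cells of a type and more RNA per cell therefore cannot be told apart. The labels do not say whether the arrays of a group came from separate plantings, so the p-values given further on rest on a spread that may be technical only.

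YAB3 signal separated wild type from the mutants but not the mutants from each other. It read 8.46, 8.35, 9.48 and 8.91 on wild-type arrays 1 to 4, 3.35 and 4.99 on the double mutant arrays and 4.40 and 5.50 on the triple mutant arrays. YAB5 read 7.52, 7.17, 5.51 and 5.32 in wild type, 6.03 and 5.60 in the double mutant and 5.28 and 5.02 in the triple mutant, so the wild-type range took in the double mutant, and wild-type array 4 lay within 0.1 of triple mutant array 1. No probe set names FIL. The wild-type arrays stood in pairs, with Pearson's r of 0.970 across the tested probe sets within arrays 1 and 2 and within arrays 3 and 4, and 0.861 to 0.888 between the pairs. All 42 spike-in control probe sets were brighter on wild-type arrays 1 and 2 than on each of the other arrays, by a median of 2.73 log2 units. The labelled tissue could hardly be checked, since only 2 of 12 listed apex genes, CLV3 and LAS, have a named probe set. LAS lay between 2.15 and 2.94 on all 8 arrays, and CLV3 read above 4 only on double mutant array 1, at 4.32.

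Because wild-type arrays 1 and 2 stood apart, differences from arrays 3 and 4 alone are given beside the pooled ones. Over the 264 members the median difference between mutants and wild type was 1.54 log2 units, a 2.91-fold higher signal. The median over the 13888 probe sets that read above 4 on at least 2 arrays, called tested here, was -0.01. All 264 members passed that filter because the rule itself demands it, and the 271 probe sets that met the thresholds were 1.95% of those tested. The opposite pattern was met by 166 probe sets (1.2%). These were lower on every mutant array and at least 1 log2 unit lower in the mean, with at least 1 mutant array above 4. Against wild-type arrays 3 and 4 alone the median difference of the members was 1.26, and 177 of them still differed by 1 or more. Against wild-type arrays 1 and 2 alone it was 1.81, with 249 at 1 or more, and 162 members differed by 1 or more from both pairs.

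Most differences were moderate. The members spread from 1.00 to 4.94 log2 units, with 129 under 1.5, 70 at 2 or more, 17 at 3 or more and 4 at 4 or more. Members were dimmer in wild type than the tested probe sets at large, with a median wild-type mean of 6.55 against 8.05. A wild-type array read 4 or lower for 56 members, whose median difference was 1.82, and the other 208 had a median of 1.43. The gap between the lowest mutant and the highest wild-type array was narrower than the mean difference, with a median of 0.34 and a range from 0.002 to 3.43. It reached 1 for 26 members and stayed under 0.1 for 58. The brightest wild-type array was array 3 for 123 members and array 4 for 87, and the lowest mutant array was double mutant array 1 for 107 and array 2 for 117.

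The largest difference among named members was that of AT1G35612, annotated as a pseudogene. It read 3.63, 4.05, 3.64 and 3.28 in wild type, 8.72 and 7.48 in the double mutant and 8.97 and 9.20 in the triple mutant, a 30.7-fold difference of means. Its wild-type arrays lay near or below the brightness threshold of 4, so the fold rests on dim values on that side. AT5G11930 read 4.47, 3.71, 4.23 and 5.18 in wild type against 8.06 and 7.60 in the double and 8.52 and 9.50 in the triple mutant, 16.3-fold higher. AT3G24450 read 5.43, 5.05, 6.73 and 5.87 in wild type, 8.92 and 8.77 in the double and 10.10 and 9.67 in the triple mutant, 12.1-fold higher. For both genes the triple mutant arrays were the 2 brightest.

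AT1G62290 had a tight wild type, at 5.26, 5.54, 5.57 and 5.42, and read 8.43 and 8.47 in the double and 9.85 and 9.30 in the triple mutant, 11.8-fold higher. AT3G22550 was 9.95-fold higher, from 6.33, 4.62, 6.95 and 7.47 in wild type to 8.71 and 9.24 in the double and 10.29 and 10.38 in the triple mutant. The 4 wild-type arrays of AT3G22550 disagreed by more than 2 log2 units, those of AT1G62290 by less than 0.5. AT3G44970 was as uneven in wild type, with 1 bright array, at 6.74, 7.00, 6.34 and 8.76 in wild type, 9.11 and 9.43 in the double and 10.40 and 11.64 in the triple mutant, a 7.66-fold difference. Wild-type array 4 lay nearer to double mutant array 1 than to the other wild-type arrays for this gene.

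The other locus-name members among the 25 largest ran from 2.02 to 2.91 log2 units. AT3G15650 read 4.76, 4.10, 6.34 and 6.05 in wild type, 8.04 and 7.16 in the double and 9.13 and 8.56 in the triple mutant, 7.51-fold higher. AT3G15720 read 3.04, 4.02, 4.89 and 3.98 in wild type, 5.36 and 6.33 in the double and 7.80 and 7.27 in the triple mutant, 6.52-fold higher. Both were brighter on each triple than on each double mutant array. AT4G37180 read 3.84, 3.84, 7.31 and 6.50 in wild type, 7.54 and 7.93 in the double and 8.63 and 7.86 in the triple mutant, a 6.14-fold difference that dropped to 1.09 log2 units against wild-type arrays 3 and 4. AT1G05710 was split in the same way, at 6.30, 6.87, 8.57 and 8.45 in wild type, 9.67 and 8.89 in the double and 9.79 and 9.91 in the triple mutant. For these 2 genes wild-type arrays 3 and 4 lay nearer to the mutants than to wild-type arrays 1 and 2. AT3G27400 had its brighter wild-type arrays in the other pair, at 6.32, 5.79, 5.40 and 5.43, with 6.92 and 8.30 in the double and 8.48 and 7.92 in the triple mutant. AT5G61520 read 4.24, 4.19, 4.60 and 5.20 in wild type, 5.27 and 6.35 in the double and 7.30 and 8.46 in the triple mutant. Its double mutant array 1 cleared wild-type array 4 by under 0.1, and its 4 mutant arrays spread over more than 3 log2 units.

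**Figure D1:**
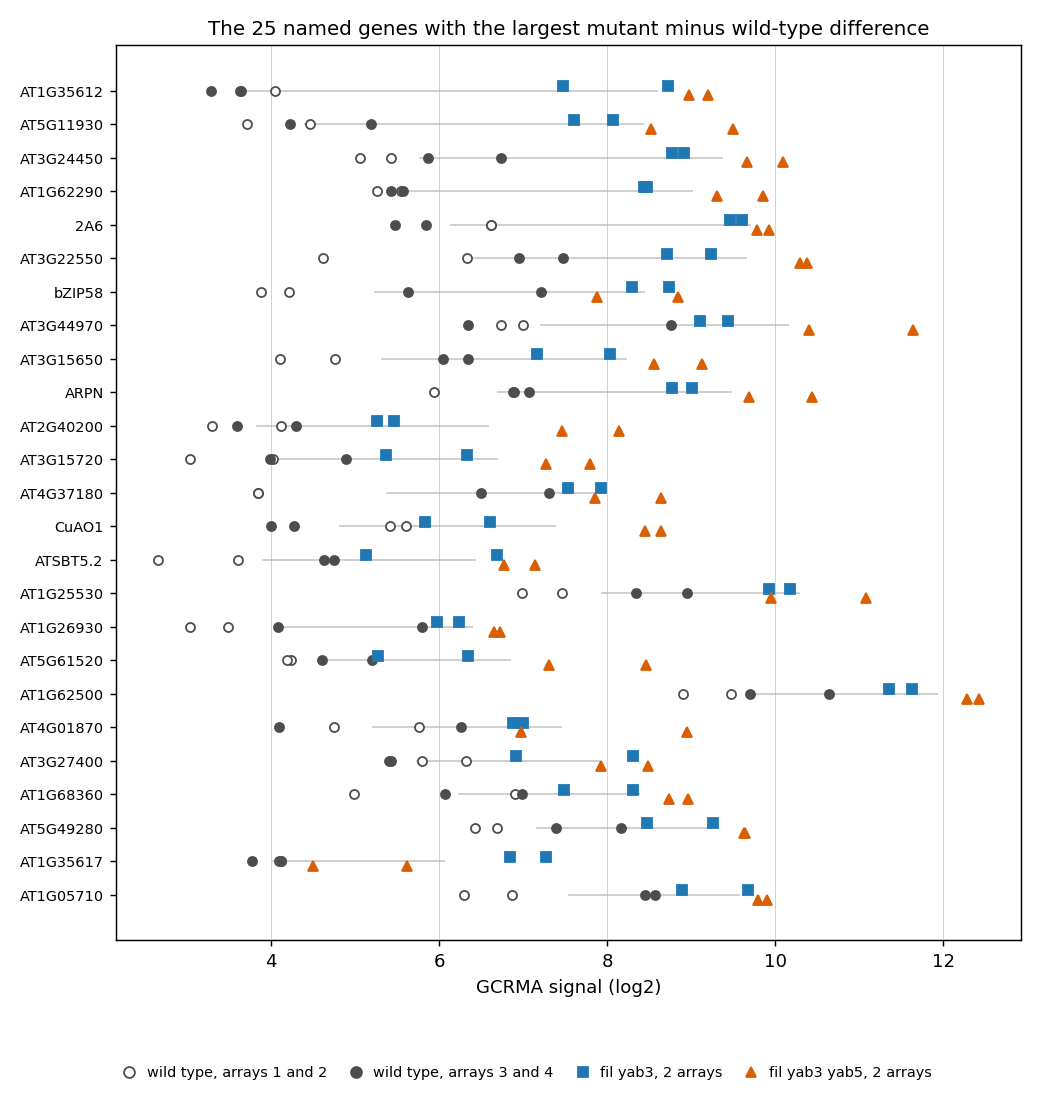
Log2 signal on each of the 8 arrays for the 25 named members with the largest mutant minus wild-type difference, with the genes in order of that difference. Open circles are wild-type arrays 1 and 2, filled circles wild-type arrays 3 and 4, squares the double and triangles the triple mutant, and a grey line joins the wild-type mean to the mutant mean. For AT1G35612 the line spans 4.94 log2 units, and for AT4G37180 the filled circles at 7.31 and 6.50 sit close to the lowest mutant signal of 7.54.

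Among the regulators of transcription with a gene symbol, bZIP58 had the largest difference. It and bZIP52 encode basic leucine zipper proteins, which bind DNA as dimers. bZIP58 read 3.88, 4.21, 7.21 and 5.63 in wild type, 8.73 and 8.30 in the double and 8.84 and 7.88 in the triple mutant, 9.23-fold higher. Its wild-type pairs lay apart, and against arrays 3 and 4 alone the difference was 2.02 log2 units in place of 3.21. bZIP52 read 5.40, 6.27, 6.42 and 6.47 in wild type, 7.66 and 6.97 in the double and 8.09 and 7.34 in the triple mutant, 2.59-fold higher.

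SPATULA (SPT), a basic helix-loop-helix protein known for building the carpel margin and for restraining the growth of cotyledons and leaves, was 3.12-fold higher. It read 5.95, 4.53, 6.07 and 6.34 in wild type, 7.38 and 6.71 in the double and 7.31 and 8.06 in the triple mutant. Wild-type array 2 was the low one for SPT, and against arrays 3 and 4 the difference was 1.16. LONESOME HIGHWAY (LHW), a basic helix-loop-helix protein required for vascular cell divisions in the root, read 8.02, 7.78, 9.55 and 9.18 in wild type, 9.77 and 9.88 in the double and 10.04 and 9.92 in the triple mutant. Its pooled difference of 1.27 dropped to 0.54 against wild-type arrays 3 and 4.

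JACKDAW (JKD) encodes a zinc finger protein that patterns the ground tissue of the root. It read 4.89, 5.15, 4.25 and 4.23 in wild type, 6.11 and 5.38 in the double and 5.85 and 6.19 in the triple mutant, 2.38-fold higher. In JKD it was wild-type arrays 1 and 2 that lay nearer to the mutants. ULTRAPETALA1 (ULT1), known for limiting the size of shoot and floral meristems, read 8.49, 9.28, 9.04 and 8.44 in wild type, 10.12 and 9.32 in the double and 10.21 and 10.41 in the triple mutant, 2.31-fold higher. Double mutant array 2 lay within 0.05 of wild-type array 2 for ULT1. AT2G35310, also called REM23 after a plant family of B3-type DNA-binding proteins, had a tight wild type of 4.99, 5.15, 5.22 and 5.27, with 6.35 and 6.29 in the double and 6.85 and 7.27 in the triple mutant, 2.89-fold higher.

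The hormone and peptide signals held 2 named members. YUC4 encodes a flavin monooxygenase that makes auxin, the hormone whose local production at leaf margins is known to guide blade growth. It read 3.04, 4.23, 5.88 and 5.62 in wild type, 6.26 and 6.43 in the double and 6.61 and 7.40 in the triple mutant, 3.95-fold higher. The wild-type pairs of YUC4 differed more than its wild-type arrays 3 and 4 differed from the mutants. The difference was 3.04 against arrays 1 and 2 and 0.92 against arrays 3 and 4. CLE27, a secreted peptide of the CLAVATA3/ESR-related family, read 5.88, 6.32, 6.002 and 6.38 in wild type, 7.77 and 6.74 in the double and 7.06 and 7.49 in the triple mutant, 2.17-fold higher.

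Several symbol-bearing members encode proteins of the cell wall or the extracellular space. CuAO1, a copper amine oxidase that oxidises polyamines and releases hydrogen peroxide, read 5.41, 5.61, 4.27 and 4.002 in wild type, 6.61 and 5.83 in the double and 8.45 and 8.64 in the triple mutant. It was 5.90-fold higher in the mutants together, and its 2 triple mutant arrays stood clear of the double mutant. Against wild-type arrays 3 and 4 the difference grew from 2.56 to 3.25. ARPN, a plantacyanin and thus a small copper-binding protein of the extracellular space, read 5.94, 6.90, 6.88 and 7.07 in wild type, 9.01 and 8.77 in the double and 9.68 and 10.44 in the triple mutant, 6.86-fold higher. The gap between the highest wild-type and the lowest mutant array of ARPN was well over 1 log2 unit.

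ATSBT5.2, a subtilisin-like serine protease, was 5.76-fold higher, from 2.65, 3.60, 4.63 and 4.74 in wild type to 6.69 and 5.12 in the double and 7.14 and 6.77 in the triple mutant. Wild-type arrays 1 and 2 fell below 4 for this gene, and the difference from arrays 3 and 4 was 1.75. The serine carboxypeptidase-like gene scpl35 was among the brighter members, at 9.23, 8.38, 10.05 and 9.39 in wild type, 10.54 and 10.57 in the double and 11.59 and 12.17 in the triple mutant, 3.88-fold higher. EXLA2, of the expansin-like branch of the expansins, which are known for loosening cell walls, read 7.91, 7.51, 7.54 and 6.79 in wild type, 8.18 and 9.34 in the double and 9.49 and 8.11 in the triple mutant, 2.54-fold higher. The 4 mutant arrays of EXLA2 were in no order of genotype.

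CSLC12, of the cellulose synthase-like family that makes the backbone of xyloglucan, was dim, at 3.35, 3.14, 4.14 and 4.09 in wild type, 4.22 and 4.50 in the double and 5.20 and 4.91 in the triple mutant. Its difference of 1.03 became 0.59 against wild-type arrays 3 and 4. ATLP-1, a thaumatin-like protein, was bright throughout, at 9.72, 9.39, 11.09 and 10.97 in wild type, 11.39 and 11.19 in the double and 11.62 and 11.27 in the triple mutant. Most of its 1.08 log2 units came from wild-type arrays 1 and 2, since the difference from arrays 3 and 4 was 0.34.

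Enzymes of metabolism were led by 2A6, whose product resembles 2-oxoglutarate-dependent dioxygenases. It read 6.62, 6.62, 5.47 and 5.84 in wild type, 9.46 and 9.61 in the double and 9.93 and 9.78 in the triple mutant, 11.8-fold higher, and the difference from wild-type arrays 3 and 4 was 4.04. All 4 mutant arrays of 2A6 lay within 0.5 log2 units of each other. CXE18, a carboxylesterase family member, read 7.12, 6.27, 7.83 and 7.31 in wild type, 7.86 and 8.55 in the double and 9.38 and 9.11 in the triple mutant, 3.01-fold higher. Double mutant array 1 barely cleared wild-type array 3 for CXE18. ALDH7B4, an aldehyde dehydrogenase known for its induction by drought and salt, had a difference of 1.02, and 5-FCL, which recycles a folate, one of 1.07 that became 0.61 against wild-type arrays 3 and 4.

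TRM25 and TRM28 share a symbol prefix, as the bZIP genes do. TRM proteins carry a motif that recruits TON1, and several organise cortical microtubules. TRM25 read 3.55, 3.53, 4.54 and 4.37 in wild type, 4.55 and 5.24 in the double and 5.73 and 5.88 in the triple mutant. TRM28 read 4.54, 4.15, 4.93 and 4.50 in wild type, 5.37 and 4.94 in the double and 5.86 and 6.06 in the triple mutant. Both were dim in every group, with differences of 1.35 and 1.03, and the triple mutant arrays were the brightest for both.

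**Figure D2:**
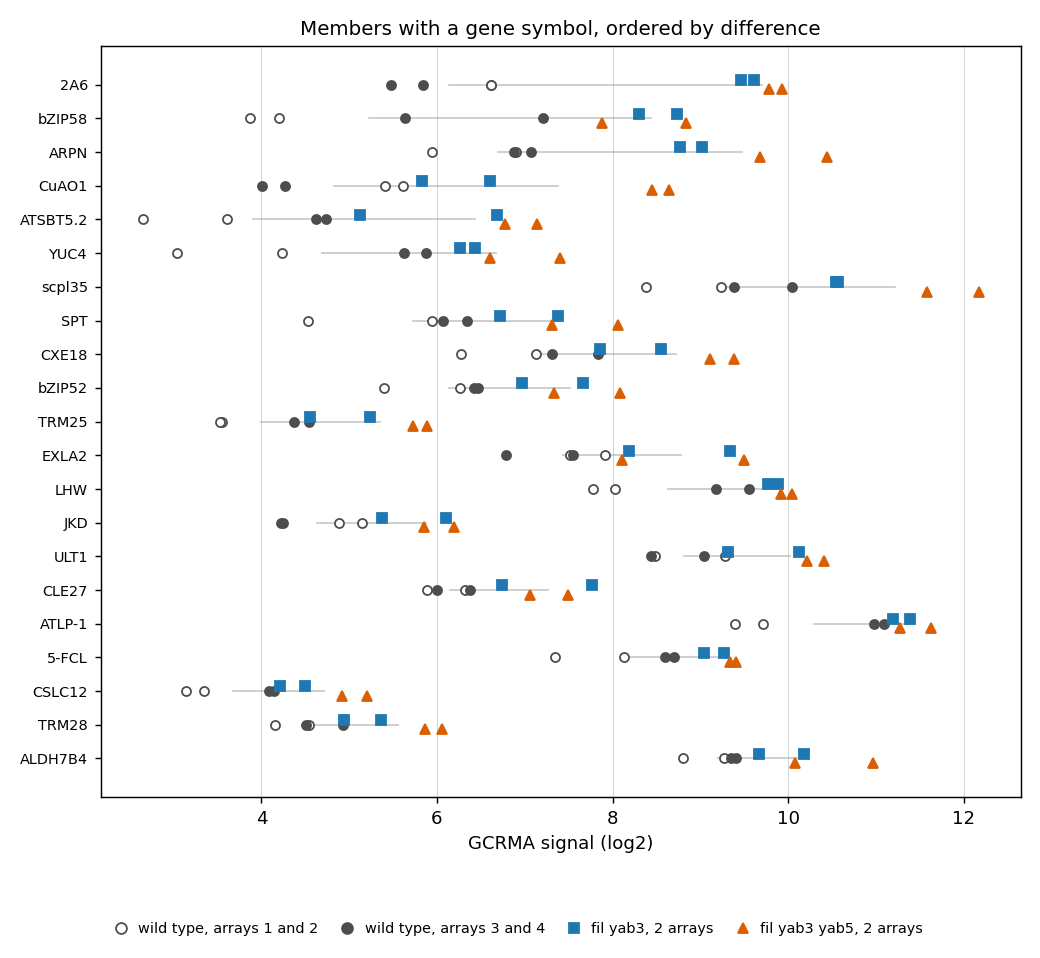
Log2 signal on each array for the 21 members with a gene symbol. Open and filled circles are wild-type arrays 1 and 2 and wild-type arrays 3 and 4, squares the double and triangles the triple mutant, and a grey line joins the wild-type to the mutant mean. The line of 2A6 spans 3.56 log2 units, and the open circles of YUC4, at 3.04 and 4.23, lie far below its filled ones at 5.88 and 5.62.

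The 8 named members brightest in wild type differed from the mutants by 1.00 to 2.24 log2 units. AT5G57785 read 10.46, 10.36, 10.67 and 9.999 in wild type, 11.87 and 11.94 in the double and 12.54 and 12.58 in the triple mutant, 3.63-fold higher, and each mutant's arrays lay within 0.1 of each other. AT1G62500 was 4.73-fold higher, from 9.47, 8.91, 10.64 and 9.70 in wild type to 11.35 and 11.63 in the double and 12.43 and 12.28 in the triple mutant. AT3G54400 read 11.27, 10.28, 10.57 and 10.97 in wild type, 12.02 and 11.78 in the double and 11.87 and 11.72 in the triple mutant. In AT3G54400 the 2 mutants overlapped, and its difference was 1.07. AT5G48480 read 9.79, 9.37, 11.44 and 10.64 in wild type, 12.15 and 12.15 in the double and 12.37 and 12.07 in the triple mutant, and here too the mutants overlapped.

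The rule did not compare the mutants with each other, a contrast that asks what loss of YAB5 adds to loss of FIL and YAB3. It did use the values of both mutants, and a probe set could reach the mean difference of 1 largely through 1 mutant. How far the shares below follow from that choice was not tested. Members read higher in the triple mutant by a median of 0.52 log2 units, against -0.03 over all tested probe sets, and 228 of 264 (86.4%) had a higher triple mutant mean against 46.0% of those tested. The median member level was 8.14 and 8.20 on the double and 8.73 and 8.59 on the triple mutant arrays, against 6.25, 6.26, 6.89 and 6.82 on wild-type arrays 1 to 4. Both triple mutant arrays exceeded both double mutant arrays for 148 members (56.1%), where 20.2% of all tested probe sets did, and both lay below for 8 members (3.03%), where 27.4% of all did. The difference reached 1 log2 unit for 54 members and -1 for a single one. At 1.75 or more lay 4.55% of the members and 1.16% of all tested probe sets, and below -1.75 lay 0.379% and 0.691%. The 2 mutants were set against the same wild-type arrays when the members were chosen, and median differences from wild type were 1.27 for the double and 1.77 for the triple mutant.

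**Figure D3:**
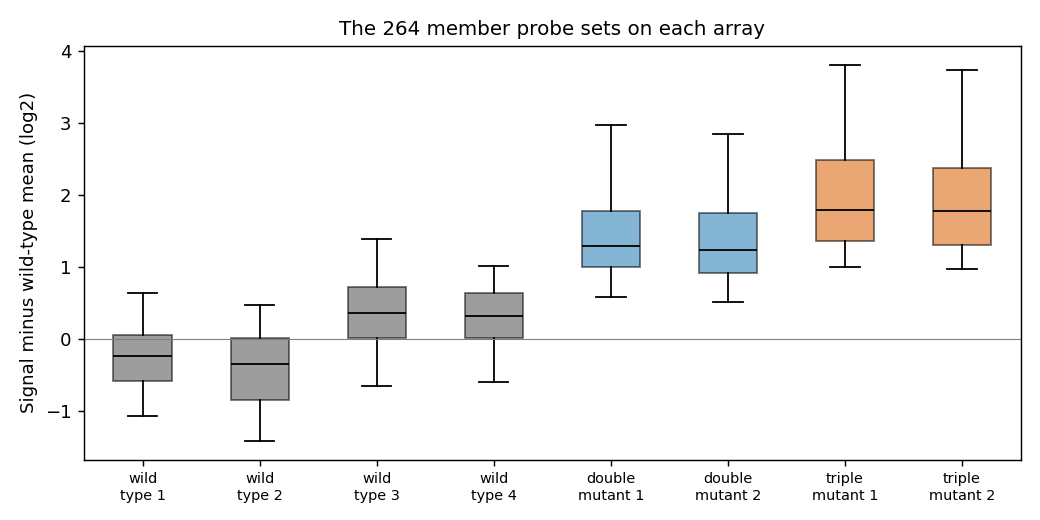
Signal of the 264 members on each array as a log2 difference from each member's wild-type mean. Boxes mark the quartiles and the median and whiskers run from the 5th to the 95th percentile. The medians of the triple mutant arrays sit above those of the double mutant arrays, with overlapping boxes, and the medians of wild-type arrays 3 and 4 above those of wild-type arrays 1 and 2.

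The 166 probe sets lower on every mutant array departed further in the triple mutant as well, in the opposite direction. Both triple mutant arrays lay below both double mutant arrays for 87 of them (52.4%) and above for 9 (5.42%), and the median difference was -0.39. By these medians both sets lay further from wild type in the triple than in the double mutant. Both were chosen on the values of these same arrays, so the lower set is no separate check on the members. How far either difference follows from the choice was not tested. Wild-type arrays split the members likewise. Arrays 3 and 4 both exceeded arrays 1 and 2 for 150 members (56.8%), against 36.5% of all tested probe sets, and both lay below for 21 (7.95%), against 29.2%. The median member was 0.68 log2 units higher on arrays 3 and 4, against 0.06 over all tested. For the 166 probe sets lower on every mutant array the split ran the other way. Arrays 3 and 4 both lay below arrays 1 and 2 for 51.2% of those and both above for 14.5%. In both sets arrays 3 and 4 lay more often on the mutant side of arrays 1 and 2. The choice of both sets used these wild-type arrays too, and a probe set could reach the mean difference largely through 1 pair. How far the split follows from that choice was not tested. The spike-in signals and, on 6 pairs of control probe sets, the excess of 3′ over 5′ signal moved with this split of the wild type. That excess was 1.29 and 1.44 on wild-type arrays 1 and 2, 0.501 and 0.466 on arrays 3 and 4, 1.41 and 0.593 on the double and 0.732 and 0.599 on the triple mutant arrays. Their part in the members' values was not tested.

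Single members seldom passed the test between the mutants. Limma with Benjamini-Hochberg adjustment over all 13888 probe sets called 76 higher (0.547%) and 18 lower (0.13%) in the triple mutant at an adjusted p under 0.05. This balance rested on the triple mutant arrays: without triple mutant array 1 there were 11 calls, 4 of them higher, and without array 2 there were 11, 5 of them higher. Without double mutant array 1 there were 57, 47 of them higher. Among the members it called 4 higher (1.52%) and 0 lower. At an unadjusted p under 0.05 limma passed 46 members (17.4%), against 8.58% of all tested probe sets. Of these 46, 45 were higher in the triple mutant. The 4 called members reached a mean difference of 1 through the triple mutant, since their double mutant means lay only 0.17 to 0.32 log2 units above wild type. Their share and that of the 46 follow in part from how members were chosen, and nothing is read from them. AT1G59960 read 5.37, 5.51, 5.59 and 5.62 in wild type, 5.72 and 5.67 in the double and 8.0 and 8.12 in the triple mutant. It rose by 2.37 ± 0.20 (SE) log2 units from the double to the triple mutant (limma adjusted p = 0.00172), and its double mutant arrays cleared wild type by under 0.1.

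The other calls had the same shape. The unnamed probe set 251037_at read 4.70, 4.78, 4.79 and 4.85 in wild type, 5.12 and 4.89 in the double and 7.04 and 7.00 in the triple mutant, a rise of 2.01 ± 0.20 (limma adjusted p = 0.00376). The unnamed probe set 249147_at read 6.81, 6.75, 6.13 and 6.78 in wild type, 6.83 and 7.01 in the double and 9.13 and 9.89 in the triple mutant, a rise of 2.59 ± 0.34 (limma adjusted p = 0.0203). In both, the double mutant lay within 0.4 log2 units of the brightest wild-type array. AT1G62150 was dim, at 3.87, 4.07, 4.06 and 4.06 in wild type, 4.55 and 4.11 in the double and 5.85 and 5.70 in the triple mutant, and rose by 1.45 ± 0.23 (limma adjusted p = 0.0484). Leaving out either triple mutant array ended all 4 calls, with limma adjusted p-values of 0.0821 and 0.0928 for AT1G59960. The call of 249147_at was also lost without either double mutant array, and that of AT1G62150 without any single array.

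Large differences that did not pass included AT2G40200, at 4.12, 3.30, 3.59 and 4.30 in wild type, 5.46 and 5.26 in the double and 8.15 and 7.46 in the triple mutant. Its difference between the mutants was 2.44 ± 0.39 (limma adjusted p = 0.0538). For CuAO1 it was 2.32 ± 0.58 (limma adjusted p = 0.239), with both triple mutant arrays above both double mutant arrays. The one member at -1 or below was AT1G35617, which read 4.09, 4.11, 3.77 and 4.11 in wild type, 7.28 and 6.84 in the double and 4.49 and 5.61 in the triple mutant. Its difference of -2.01 ± 0.38 did not pass (limma adjusted p = 0.0953), and the triple mutant arrays lay between wild type and the double mutant.

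**Figure D4:**
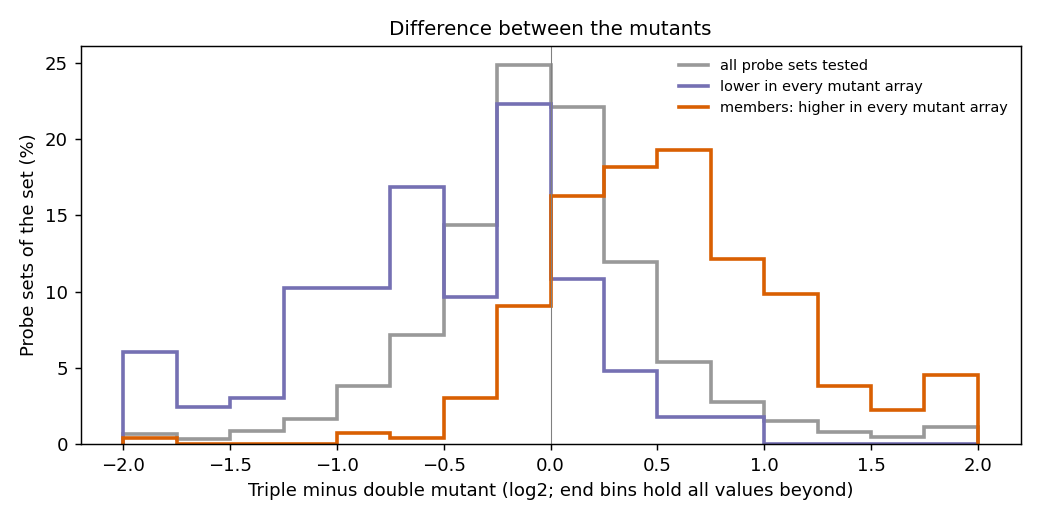
Distribution of the triple minus double mutant difference, in log2 units, over the 264 members, the 166 probe sets lower on every mutant array and all 13888 tested probe sets, as percent of each, with the end bins holding all values beyond. The medians lie at 0.52, -0.39 and -0.03.

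The thresholds were also applied to 7 arrays at a time, which chose 260 to 417 probe sets, not all of them members. The array left out was then read for these probe sets, and most fell on the same side on it. Without triple mutant array 1, 260 probe sets were chosen, and 251 of them (96.5%) exceeded the highest wild-type array on it, where 21.9% of all tested probe sets did. The share was 87.8% for triple mutant array 2 (against 21.3%), 70.6% for double mutant array 1 (against 21.3%) and 75.3% for double mutant array 2 (against 17.1%). The median signal above the wild-type mean was 1.76 and 1.60 on the triple and 1.04 and 0.99 on the double mutant arrays left out. Each median rests on its own list of probe sets, chosen with fewer arrays of the mutant that was read, so the mutants are not compared on these medians.

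Wild-type arrays left out lay below the lowest mutant array for 85.4% of the probe sets chosen without array 1, 88.8% without array 2, 68.1% without array 3 and 78.5% without array 4. The shares over all tested probe sets were 33.4%, 33.5%, 23.2% and 26.4%. The median distance to the mutants was 1.59 and 1.69 log2 units for wild-type arrays 1 and 2 and 0.76 and 0.98 for arrays 3 and 4. Without wild-type array 3, 417 probe sets met the thresholds, and 254 of them were members. An array left out shares its genotype with arrays used in the choice, so these shares are readings of replicates and not of another experiment.

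**Figure D5:**
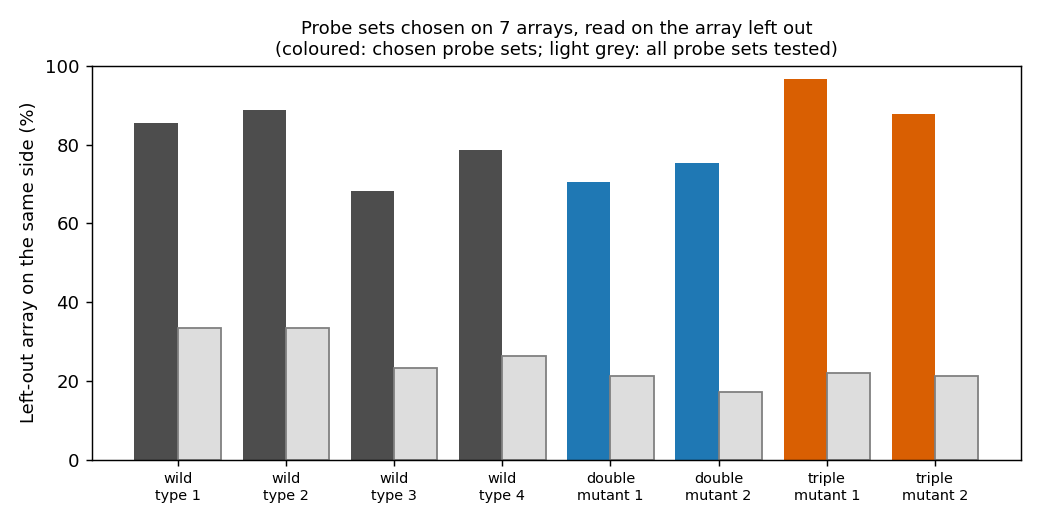
For each array left out in turn, the percent of probe sets chosen on the other 7 arrays that fell on the same side on it, beside the percent over all tested probe sets. The highest share is 96.5% for triple mutant array 1 and the lowest 68.1% for wild-type array 3, and every share lies above its background.

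Members were spread over all 5 chromosomes. Of 120 named members with a place in the TAIR10.1 gene table, 37 (30.8%) lie on chromosome 1, 12 (10%) on chromosome 2, 24 (20%) on chromosome 3, 19 (15.8%) on chromosome 4 and 28 (23.3%) on chromosome 5. The shares over all named tested genes were 26.4%, 14.5%, 20.9%, 14.3% and 23.9%. Within 10 places of each other in gene order lay 5 pairs, with 10 members. How many such pairs an equal number of other tested genes would hold was not worked out, so nothing is read from this count. AT1G35612 and AT1G35617 were 2 places apart, with AT1G35612 brighter in the triple and AT1G35617 in the double mutant. YUC4 and AT5G11410 lay 10 places apart, with AT5G11410 at 2.66, 2.4, 3.88 and 4.15 in wild type, 4.67 and 5.13 in the double and 5.03 and 5.003 in the triple mutant. Both genes of that pair read lower on wild-type arrays 1 and 2 than on arrays 3 and 4. The other pairs were AT1G21050 with AT1G21090, AT3G15650 with AT3G15720, and AT5G23460 with CXE18.

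Gene lists for leaf polarity, hormones, metabolism and other tissues held members at a share near the background. Of 22 lists, 18 had a tested gene, and 3 of their 104 tested genes were members. With WES1, 4 of the 104 met the thresholds, beside 1.95% of all tested probe sets, and nothing is read from so small a count. GH3.17, GID1B, GH9B13, APS4 and GTR2 met the thresholds too and were left out. They were not among the 104 genes, so these counts do not cover them. Of 7 tested auxin genes YUC4 was the one member, and WES1, which conjugates auxin to amino acids, met the thresholds but was left out. The median auxin gene differed by -0.21. Of 16 tested cell wall genes EXLA2 alone was a member, with a list median of 0.53, and of 6 genes of blade and margin growth SPT alone, with a list median of 0.14. None of the 11 tested photosynthesis genes (median -0.23), the 8 of trichomes and stomata (-0.49), the 7 of flowering time and the clock (0.17) or the 9 of phenylpropanoids (0.74) was a member.

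Few markers of other tissues were tested. Among root genes only PYK10 was tested of 37 listed, at 11.7 to 12.9 in wild type and 12.6 to 13.9 in the mutants. PYK10 differed by 1.02 log2 units, as much as some members, though its wild-type and mutant arrays overlapped. Among vascular genes only CLE41 was tested of 37, at 8.27 to 8.80 against 8.87 to 9.33. CLE41 did not overlap between wild type and mutants, and its difference was 0.58. With the threshold at 0.5 the rule was met by 530 of the 13888 tested probe sets, CLE41 among them, so nothing is read from this gene alone. The 11 photosynthesis genes summed to 17.3 to 17.8 in wild type and 17.3 to 17.4 in the mutants, as log2 of the summed signal, and no flower, pollen or seed gene was tested. The part of other tissues in the members' values was not tested.

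The threshold of 1 on the mean difference fell within a continuous run of values. Just inside it lay AT3G25600 at 1.0004 and AT3G13230 at 1.005, and just outside lay IQD26 at 0.9965 and AT1G76120 at 0.9937. AT3G13230 read 9.76, 8.42, 9.59 and 9.63 in wild type, 10.61 and 10.17 in the double and 10.06 and 10.59 in the triple mutant. With the threshold at 2, 70 of the members stayed, and at 0.5, 530 probe sets met the rule. Without the need for a wild-type array above 4, 327 did, so further transcripts that are dim on all wild-type arrays lie outside the members.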

How the data were processed

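The authors deposited 1 log2 value per probe set and array. Per the submitters' processing notes these came from GCRMA, run under R 2.7.2. Its settings are not known here. GCRMA removes background modelled on probe sequence, forces all arrays to the same quantiles and combines each set's probes, so near-equal array medians are imposed. The values run from 2.10 to 15.8, and dim probe sets pile up at the lower end, which shrinks both their folds and their spread. The table holds 22810 rows, of which 64 are control probe sets.

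Gene names came from the platform annotation, updated through gene identifiers in the TAIR10.1 gene table, which matched 120 of the 124 members naming 1 gene. A fold is 2 to the power of a log2 difference of means. Mutants against wild type got no test, since that contrast chose the members. The triple and double mutants were compared by a two-sided test in limma 3.58.1 (lmFit, then eBayes, under R 4.3.3), with 3 groups, 8 arrays, 5 residual degrees of freedom and Benjamini-Hochberg adjustment over the 13888 tested probe sets. The fit was tested on simulated data, and plots were made in matplotlib 3.10.9. Precision is limited by how few arrays there are.

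The members and gene lists were chosen with earlier results of these data known. Genes named were the 25 largest differences, the 8 brightest in wild type, members of a gene list, of a neighbour pair or of a shared symbol prefix, those called between the mutants, and those nearest the threshold. Outside this rule, scpl35, LHW, JKD, ULT1, CLE27, 5-FCL, CSLC12 and AT2G35310 (by its synonym) were named for their symbols after their values were seen. Promoter motifs were not analysed here. Alternatives covered normalization, filters, wild-type pairs, fits with fewer arrays, a replicate block and each array left out.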

Additional observations from a re-analysis of the deposited data

Results flagged for a closer look

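Between the mutants, limma called 4 members (1.52%), each higher in the triple mutant, against 0.547% of all tested probe sets. These members reached a mean difference of 1 through the triple mutant, so nothing is read from their share. The log2 difference was 2.37 for AT1G59960, 2.01 for 251037_at, 2.59 for 249147_at and 1.45 for AT1G62150, with both triple mutant arrays above both double mutant arrays in each.

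Among the 55 named members, 4 had a wild-type array far from the other wild-type arrays by Dixon's test at the 95% level, and chance flags about 1 in 20 groups. ARPN read 5.94 on wild-type array 1 and 6.88 to 7.07 on the others. AT1G35617 read 3.77 on array 3 against 4.09 to 4.11, and AT1G62150 read 3.87 on array 1 against 4.06 to 4.07. AT3G13230 read 8.42 on array 2 against 9.59 to 9.76.

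Outside the main measurement, 1 of the 64 control probe sets read more than 1 log2 unit higher on every mutant array than on every wild-type array. AFFX-r2-At-U12639_at read 2.1, 2.21, 2.21 and 2.21 on wild-type arrays 1 to 4, 9.28 and 9.48 in the double mutant, and 9.07 and 9.37 in the triple. The mean over all mutant arrays was 9.30, at least 39.5-fold above a log2 level of 4. The files and labels do not say what this probe set detects.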

How the results depend on the processing

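The number of probe sets meeting the rule, 264, became 70 with a difference of 2 or more, 530 with 0.5 or more, 454 with wild-type arrays 3 and 4 only (176 shared), 1003 with arrays 1 and 2 only (221 shared), and 260 to 417 with 1 array left out. The members' median difference of 1.54 was 1.26 against wild-type arrays 3 and 4 and 1.81 against arrays 1 and 2, and 1.42 to 1.63 with 1 array left out. The median triple minus double difference of 0.52 ran from 0.48 to 0.60 with 1 array left out.

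Calls between the mutants were sensitive to the fit. The 94 calls over all probe sets became 144 without a filter, 55 with log2 above 6, 284 with array weights, 53 with only the mutant arrays, 233 with the wild-type pairs as separate groups, 143 with only wild-type arrays 3 and 4, and 11 to 94 with 1 array left out. Of the 94 calls 76 were higher in the triple mutant, but only 4 of 11 without triple mutant array 1 and 5 of 11 without array 2. The 4 member calls became 13 with array weights, 1 with only the mutant arrays, 14 with the pairs separate, 7 with only wild-type arrays 3 and 4, and 0 to 4 with 1 array left out. A fit without a mutant array has only 1 array left in that group. Without either triple mutant array none of the original 4 member calls stayed. With the replicate block limma called 0 probe sets and 0 members, against 1767 and 86 at an unadjusted p under 0.05. The block leaves 1 residual degree of freedom, and the deviations of same-numbered mutant arrays had a correlation of 0.0039. The labels do not say whether the numbers pair the arrays, and 1 correlation from so few arrays cannot settle it.

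Chosen after seeing the data, the share of members with both triple mutant arrays above both double mutant arrays, 56.1%, was recomputed on other choices of members. It was 48.2% for those chosen on wild-type arrays 3 and 4 only, 37.9% for those on arrays 1 and 2 only, and 45.3% to 67.5% with 1 array left out. Over all tested probe sets these shares were 29.4% to 38.5% when a mutant array was left out, against 20.2% otherwise. Dim values near the floor limit the folds of members with wild-type signals below 4.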
